A study of Mus musculus with 191 samples.

Results

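The livers of mice given control IgG show how the liver transcriptome moves through the day in this series. Of 191 libraries from 5 tissues, these are the 18 labelled as liver and IgG, with 3 at each of Zeitgeber time (ZT, hours from lights on) 1, 5, 9, 13, 17 and 21. They came from wild-type C57BL/6 mice dosed with the non-depleting antibody at 3 µg per g body weight for 2 days and taken on the day after, so none of them is an untreated liver. The counterpart with depleted neutrophils is 18 liver libraries at the same times from mice given anti-Ly6G at the same dose, and 18 gut libraries from IgG mice are used to set the clock genes side by side. Sex, age and photoperiod are not given in the sources used here, and night below means ZT 12 to 24. Part of the mice lived under a light cycle inverted by 12 h in separate cabinets, and since no label names them, cabinet and ZT cannot be told apart.

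Daily rhythm in liver is known to be set by the cell-autonomous circadian clock and by feeding. In the clock, CLOCK (or NPAS2) and BMAL1, the product of Arntl, switch on the Per and Cry repressor genes, the REV-ERB genes Nr1d1 and Nr1d2 and the output factors Dbp, Tef and Hlf. The PER and CRY proteins then shut down that activation, and the REV-ERB proteins repress Arntl. Mice feed mostly in darkness, and insulin, fasting hormones, glucocorticoids and body temperature each drive further genes.

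Values are the deposited normalized signal, a linear, depth-scaled measure in which 1 expected read count was worth between 0.0416 and 0.0956 units in these libraries. Recovered depth was between about 10300000 and 23200000 counts per library (median 12050000), and the 10 most abundant genes held between 16.6 and 19.1%. Hepatocyte markers summed to between 80179 and 111120 units, against at most 6.5 units for neutrophil markers without Lcn2 and 11.4 units for lymphocyte markers. Over 23 core clock genes, 17 of the 18 libraries lay nearest to the mean of their own labelled time. The exception, number 6 and the deepest, is labelled ZT 5 and lay nearer to ZT 9 (root mean square distance 0.462 log2 units) than to its own time (0.606), and without it 5109 genes had a 24 h rhythm and 169 a 12 h component, against 5368 and 187 with it. The labels give 3 mice per group for other tissues of the antibody experiment and do not repeat it for liver, so p-values measure a spread between libraries. That spread is 1 residual per gene over all 36 liver libraries of both treatments. It also holds any departure of the time means from the fitted wave.

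A 24 h rhythm was found in 5368 of 12504 tested genes, or 42.9% (limma F test of the fitted 24 h wave, adjusted p below 0.05). Peak hours fell into a daytime and a night-time crowd, with 1189 genes in the 4 h window around ZT 5 and 1107 in that around ZT 17, against 763 around ZT 1, 806 around ZT 9, 712 around ZT 13 and 791 around ZT 21. Most rhythms were small. The median peak-to-trough fold, fitted on log2(value + 1) and so understated for low genes, was 1.44, with 648 genes above 2-fold, 97 above 4-fold and 13 above 10-fold. In 96.1% of rhythmic genes every library of the highest time lay above every library of the lowest time, and in 74.2% of all tested genes. The median standard error of a peak hour was 0.908 h. The count was 4619 with ZT as 6 unordered times and between 4937 and 5354 when any 1 IgG library was left out. Leaving out all libraries of a time gave between 4009 (without ZT 5) and 4970 (without ZT 21).

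**Figure D1:**
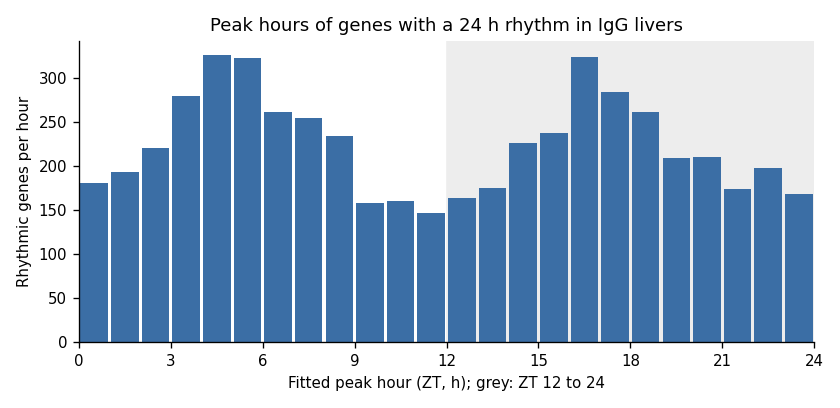
Number of rhythmic genes (y axis) by fitted peak hour in ZT, in bins of 1 h (x axis), for the 5368 genes with a 24 h rhythm in IgG livers. The bars crowd near ZT 5 and ZT 17, and the grey field is ZT 12 to 24.

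The clock genes carried the widest swings and ran through the day in sequence. Of 23 listed core clock genes all were tested and 21 were rhythmic, against the 42.9% of all tested genes, with a median amplitude of 1.17 log2 units against 0.17 for all genes tested. Nr1d1, encoding the repressor REV-ERBα (ENSMUSG00000020889, chromosome 11, 98767932 to 98775333), was 17, 12.5 and 20.4 at ZT 1, 119, 142 and 91.6 at ZT 5, 43.9, 81.4 and 47.2 at ZT 9, 7.36, 6.09 and 11.7 at ZT 13, 1.14, 1.16 and 2.43 at ZT 17, and 2.1, 3.23 and 3.08 at ZT 21. All ZT 5 libraries were above every library of the other times, and the fitted peak was 6.2 ± 0.224 h (SE; 47.6-fold; adjusted p = 4.5e-14). Dbp, encoding an activator that binds D-box elements (ENSMUSG00000059824, chromosome 7, 45705088 to 45710203), was 0.338, 0.439 and 0.148 at ZT 1, 60.3, 68.3 and 83.2 at ZT 5, 106, 112 and 113 at ZT 9, 9.89, 12.1 and 16.1 at ZT 13, 1.92, 2.36 and 1.55 at ZT 17, and 1.01, 1.29 and 0.515 at ZT 21. Every ZT 9 library was above all others and the ZT 5 libraries came next, and the fit gave 97.6-fold at 8.59 ± 0.367 h (adjusted p = 3.9e-09). Nr1d2, the REV-ERBβ gene, peaked at 8.29 h (11.8-fold).

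The repressors came next. Per3 peaked at 10.8 h (12.8-fold), Ciart, encoding a further repressor of the clock, at 10.6 h (12.7-fold), and Per1 at 11.6 h (5.71-fold). Per2 was 11, 13.6 and 11.9 at ZT 1, 14.8, 14.9 and 25.4 at ZT 5, 43.9, 30.4 and 50.1 at ZT 9, 95.7, 113 and 99.1 at ZT 13, 77.3, 94.6 and 50.2 at ZT 17, and 30.2, 19.1 and 22.6 at ZT 21, a peak of 13.9 ± 0.24 h (7.82-fold; adjusted p = 2.2e-13). The ZT 5 libraries of Per2 were 14.8, 14.9 and, in library 6, 25.4, and every ZT 13 library was above all of those at ZT 21, 1, 5 and 9. Cry1, the late repressor, was 22, 28.1 and 26.1 at ZT 1, 5.47, 6.1 and 7.51 at ZT 5, 12.4, 6.85 and 7.73 at ZT 9, 27.7, 26.9 and 24.7 at ZT 13, 52.8, 40.1 and 44.8 at ZT 17, and 45.2, 54.6 and 43.1 at ZT 21. Its ZT 17 and ZT 21 libraries overlapped with each other and lay above all others, with a fitted peak of 18.8 ± 0.272 h (7.38-fold; adjusted p = 5.4e-12). Cry2 had a much smaller wave (1.57-fold, peak 12.2 h).

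The activators were highest late at night and at ZT 1. Arntl (ENSMUSG00000055116, chromosome 7, 113207465 to 113314126) was 29.6, 33.3 and 31.8 at ZT 1, 5.71, 5.09 and 1.69 at ZT 5, 1.4, 0.978 and 1.55 at ZT 9, 7.91, 5.78 and 6.38 at ZT 13, 20.3, 17.4 and 22 at ZT 17, and 23.8, 31.3 and 23.7 at ZT 21. The ZT 1 and ZT 21 libraries overlapped and lay above all others, and in ZT 5 library 6 stood apart with 1.69, close to the ZT 9 values. The fitted peak of Arntl was 21 ± 0.395 h (13.7-fold; adjusted p = 1.5e-08). Npas2, which can stand in for Clock as the partner of BMAL1, was 10.8, 10.5 and 12.3 at ZT 1, 0.527, 0.236 and 0.354 at ZT 5, 0.0426, 0.14 and 0.0468 at ZT 9, 0.041, 0.0342 and 0.13 at ZT 13, 1.54, 0.562 and 1.46 at ZT 17, and 11.6, 13.4 and 9.5 at ZT 21, so at ZT 9 and ZT 13 it was at the level of 3 reads or fewer per library while at ZT 1 and ZT 21 no library was below 9.5. Its peak was 22.6 ± 0.339 h (17-fold). Clock itself peaked at 21.5 h but moved only 2.49-fold.

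**Figure D2:**
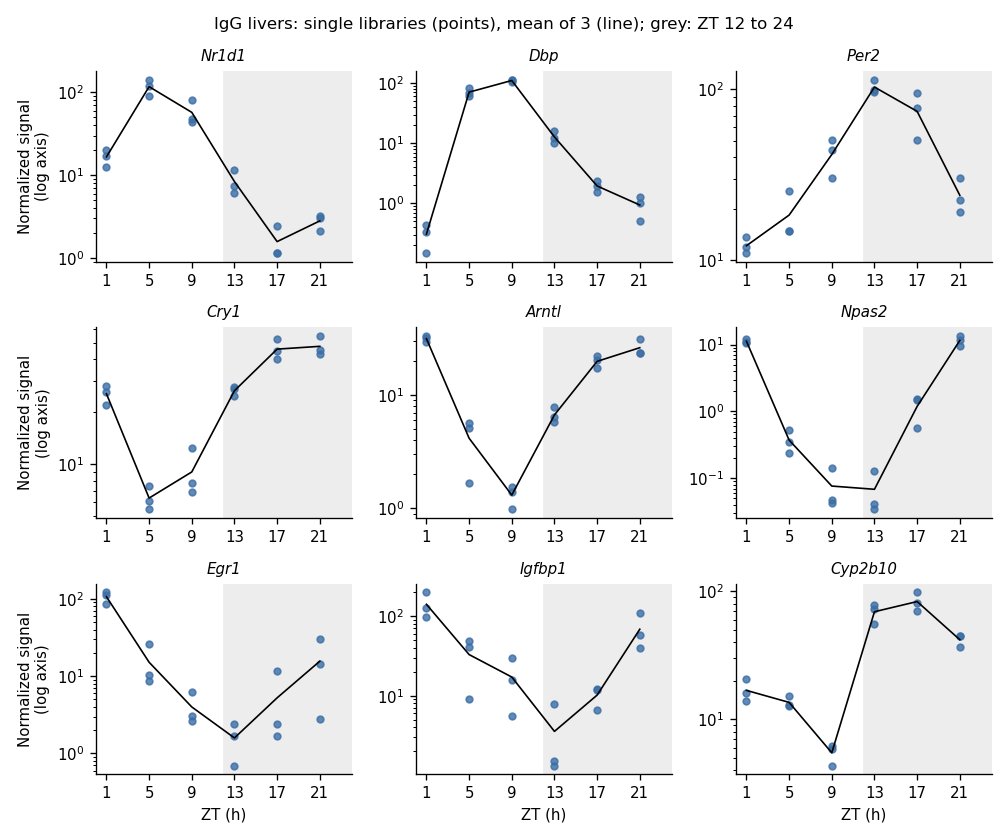
Normalized signal (y axis, log scale) of 9 genes in each of the 18 IgG liver libraries by ZT in hours (x axis), with the mean of 3 as a line and ZT 12 to 24 in grey. Nr1d1 and Dbp are highest at ZT 5 and ZT 9, Per2 at ZT 13, and Cry1, Arntl and Npas2 between ZT 17 and ZT 1, while Egr1 and Igfbp1 are highest at ZT 1 and Cyp2b10 at ZT 13 and ZT 17.

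Among the genes that link the clock to its outputs, the D-box activators Tef (6.4-fold, 10.7 h) and Hlf (2.51-fold, 12 h) peaked later than Dbp, and Nfil3, encoding a repressor at the same elements, peaked at 20.7 h (4.54-fold), about opposite. The nuclear receptor gene Rora, whose product competes with REV-ERB, moved 1.33-fold. The E-box repressor genes Bhlhe41 and Bhlhe40 peaked at 8.04 h (4.28-fold) and 10.3 h (2.93-fold). Fbxl21, encoding a ubiquitin ligase subunit that acts on CRY, was at the edge of the threshold (1.42-fold; adjusted p = 0.0393), with an adjusted p of 0.0562 in the IgG libraries alone and 0.0715 after quantile normalization. The kinase genes Csnk1d (adjusted p = 0.57) and Csnk1e (adjusted p = 0.896) did not pass.

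The step between neighbouring times was uneven for the clock genes. Their root mean square change was 2.21 log2 units between ZT 1 and ZT 5, 0.745 between ZT 5 and ZT 9, 1.2 between ZT 9 and ZT 13, 0.95 between ZT 13 and ZT 17, 0.77 between ZT 17 and ZT 21 and 0.988 between ZT 21 and ZT 1. Over all tested genes the same steps ranged only from 0.229 (ZT 21 to ZT 1) to 0.343 (ZT 9 to ZT 13). The clock genes thus moved most in early day, where library 6 adds to the spread at ZT 5.

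Clock gene promoters are shown because their known elements give the loop its order. RefSeq promoter windows (GRCm38.p6, 250 bases before to 50 after the start site) were found for 9512 of the 12504 tested genes and for 18 of the 23 clock genes, with 1 window searched per gene. The E-box CACGTG, searched on both strands, was in 5 of the 18, all of them rhythmic, and in 10.2% of the 9512. The D-box, TTATGTAA or TTACGTAA, was in Per3 and in 0.694% of all. The core TAGGTCA of the element bound by ROR and REV-ERB proteins was in Nfil3 and in 2.04% of all. Each stretch runs 5′ to 3′ on the strand of its gene, with the element in capitals.
Per1 (chr11:69098763-69098808, + strand): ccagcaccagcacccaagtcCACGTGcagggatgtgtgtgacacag
Ciart (chr3:95882319-95882364, - strand): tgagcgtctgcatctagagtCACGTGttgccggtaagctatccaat
Tef (chr15:81802526-81802571, + strand): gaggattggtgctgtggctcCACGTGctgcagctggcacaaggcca
Bhlhe41 (chr6:145865548-145865593, - strand): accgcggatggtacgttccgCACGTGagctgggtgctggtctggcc
Cry1 (chr10:85185089-85185134, - strand): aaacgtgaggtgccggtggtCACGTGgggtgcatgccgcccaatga
Per3 (chr4:151044843-151044890, - strand): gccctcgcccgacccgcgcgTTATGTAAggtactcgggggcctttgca
Nfil3 (chr13:52981025-52981071, - strand): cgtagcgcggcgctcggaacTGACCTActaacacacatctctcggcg
The E-box in the Cry1 window did not go with the peak hours of the other E-box genes: Bhlhe41, Ciart, Tef and Per1 peaked between 8.04 h and 11.6 h, and Cry1 at 18.8 h. The element in Nfil3 reads on the opposite strand (TGACCTA).

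Set beside the gut of IgG mice, where 33.6% of 15158 tested genes were rhythmic, the fitted peaks of most clock genes came earlier in liver. Of 19 clock genes rhythmic in both tissues, 16 had the later peak in gut, and the median difference, liver minus gut, was -1.20 h. Nr1d1 peaked at 6.2 h in liver and 8.38 h in gut, Dbp at 8.59 h in liver and 10.1 h in gut, and Arntl at 21 h in liver and 23.3 h in gut. The fold of Arntl was 13.7 in liver and 3.49 in gut. The tissues come from separately normalized tables, so these differences were not tested. Anti-Ly6G livers, with 34.7% of genes rhythmic, had Dbp at 7.84 h and IgG livers at 8.59 h, and Cry1 was at 17.4 h in anti-Ly6G livers and 18.8 h in IgG livers. Of 19 clock genes rhythmic in both treatments 1 had its later peak in anti-Ly6G livers, and the median difference, IgG minus anti-Ly6G, was 0.80 h. No clock gene passed the test of a difference in rhythm between these treatments (adjusted p between 0.421 and 0.96), and 1 gene of 12504, or 0.00800%, did.

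Genes that respond to fasting and feeding were often rhythmic but had no common hour. Of 22 such genes 15 were rhythmic (68.2%; median amplitude 0.45; concentration 0.33), 5 of them with peaks in the window around ZT 1. Igfbp1, encoding an insulin-repressed binding protein of insulin-like growth factors (ENSMUSG00000020429, chromosome 11, 7197782 to 7202546), was 96, 125 and 198 at ZT 1, 48.9, 40.2 and 9.18 at ZT 5, 5.58, 30 and 15.8 at ZT 9, 1.52, 1.33 and 7.86 at ZT 13, 11.8, 6.71 and 12 at ZT 17, and 39.3, 108 and 56.9 at ZT 21. Apart from 1 ZT 21 library at 108, no library at another time reached the lowest ZT 1 value of 96. The fit gave 24.4-fold at 0.65 ± 0.472 h (adjusted p = 4.5e-07). Egr1, an immediate early transcription factor gene, was 112, 122 and 86.6 at ZT 1, 26.4, 10.5 and 8.55 at ZT 5, 3.02, 2.66 and 6.32 at ZT 9, 0.697, 1.68 and 2.39 at ZT 13, 11.7, 2.38 and 1.66 at ZT 17, and 14.2, 29.9 and 2.77 at ZT 21, a fit of 24.1-fold at 1.11 ± 0.527 h (adjusted p = 3.2e-06). Its ZT 1 libraries were all above the others, and ZT 17 and ZT 21 each held libraries that differed by more than 5 units. Irs2, an adaptor of the insulin receptor, peaked at 0.191 h (4.66-fold), while the fasting-induced thioredoxin inhibitor Txnip peaked at 7.68 h (2.48-fold), the growth-factor responsive Klf10 at 8.84 h (4.64-fold) and the lipase gene Pnpla2 at 7.75 h (2.03-fold). On the night side, G0s2, an inhibitor of that lipase, peaked at 16.7 h (3.86-fold) and Angptl8, a feeding-induced secreted factor, at 13.8 h (2.6-fold).

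Among 20 tested immediate early genes 10 were rhythmic (50%, near the 42.9% of all tested genes), and besides Egr1 the widest were Junb (3.19-fold, 4.14 h), Actg1 (2.25-fold, 16.3 h) and Nr4a1 (2.23-fold, 1.87 h). The cytoskeletal Actg1 and Actb, targets of serum response factor, peaked at night, and Actb moved 1.83-fold. Fos and Ier3 were too low to be tested, and Fosb was not analysed here.

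Glucose handling ran in stages. Of 22 glycolysis and glycogen genes tested 20 were rhythmic (90.9%; median amplitude 0.37). Glycogen synthase Gys2 (2.98-fold) peaked at 10.5 h and the glucose transporter Slc2a2 (2.06-fold) at 9.34 h, before the onset of night, with the glycolytic activator Pfkfb3 (4.81-fold) at 10.7 h. The glycogen-targeting subunits of protein phosphatase followed, Ppp1r3b at 17.3 h (3.94-fold) and Ppp1r3c at 22.1 h (4.98-fold). Enzymes of the lower pathway peaked at night with small folds, such as Eno1 (1.48-fold, 16.5 h) and Pgk1 (1.43-fold, 17.5 h). Ldha (adjusted p = 0.643) and Pfkl (adjusted p = 0.0915) did not pass.

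Of 14 gluconeogenic genes 11 were rhythmic (78.6%, beside 42.9% of all tested genes), without a common hour. Pck1, the cytosolic PEPCK gene, was 292, 734 and 943 at ZT 1, 1596, 1385 and 824 at ZT 5, 1453, 2172 and 1143 at ZT 9, 438, 261 and 376 at ZT 13, 209, 324 and 438 at ZT 17, and 640, 1162 and 560 at ZT 21. Its ZT 13 and ZT 17 libraries, at 438 or below, lay under all ZT 5 and ZT 9 libraries, for a peak of 5.34 ± 0.874 h (3.78-fold; adjusted p = 0.00248). G6pc, the glucose-6-phosphatase catalytic gene, peaked at 0.392 h (3.65-fold), while Slc37a4, the transporter that serves the same enzyme, peaked at 12.9 h (2.82-fold). Got1 (1.98-fold) and Gpt2 (1.9-fold), aminotransferase genes, peaked at 4.36 h and 12.9 h.

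Fatty acid and triglyceride synthesis held some of the widest swings. Of its 22 genes 13 were rhythmic (59.1%, beside 42.9% of all tested genes), with a median amplitude of 0.44, and no common hour emerged. Elovl3, an elongase of very long chains, was 806, 831 and 737 at ZT 1, 164, 216 and 117 at ZT 5, 47.1, 29.9 and 37.3 at ZT 9, 53.2, 79.6 and 118 at ZT 13, 249, 274 and 344 at ZT 17, and 652, 620 and 579 at ZT 21. The ZT 1 and ZT 21 libraries were above all others, and the fit gave 19.5-fold at 22.3 ± 0.266 h (adjusted p = 3.5e-12). Thrsp, a lipogenic factor, peaked at 14.5 h (6.37-fold), Srebf1, the SREBP1 gene, at 11.9 h (2.2-fold) and its target Elovl6 at 12.3 h (2.67-fold). Lpin1, a phosphatidate phosphatase and coactivator, peaked at 10.4 h (4.14-fold). Fasn (adjusted p = 0.136), Acly (adjusted p = 0.461) and Gpam (adjusted p = 0.977) did not pass.

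Cholesterol synthesis was rhythmic in 12 of 25 genes (48%, near the 42.9% of all tested genes), with a median amplitude of 0.27. Of the 12, 8 peaked in the windows around ZT 21 and ZT 1. Hmgcs1, the synthase at the head of the pathway, was 490, 446 and 559 at ZT 1, 451, 286 and 382 at ZT 5, 138, 460 and 146 at ZT 9, 57.7, 164 and 190 at ZT 13, 178, 237 and 198 at ZT 17, and 378, 405 and 345 at ZT 21. At ZT 9 the libraries were split, with 1 at 460 and the others at 138 and 146, and the fit gave 3.75-fold at 1.02 ± 0.572 h (adjusted p = 1.2e-05). Mvd (2.02-fold) peaked at 20.5 h, Pmvk (1.97-fold) at 22.5 h and Idi1 (1.72-fold) at 2.74 h. The count was 6 without ZT 17 and 17 without library 8, the ZT 9 library with Hmgcs1 at 460. In anti-Ly6G livers 22 of the 25 were rhythmic, beside 34.7% of all tested genes there. None of the 25 passed the test of a difference between treatments.

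Fatty acid oxidation genes were near the background, with 13 of 29 rhythmic (44.8%). Pdk4, the kinase that spares pyruvate, peaked at 22.1 h (7.59-fold), Cpt1a, the entry enzyme of mitochondrial oxidation, at 8.12 h (2.58-fold) and its regulator Ppara at 8.33 h (2.07-fold). Plin5 (2.91-fold, 17.5 h) and Acot1 (2.79-fold, 18.6 h), of lipid droplets and acyl-CoA hydrolysis, peaked at night. Acadm and Acadvl, abundant enzymes of the same pathway, had adjusted p of 0.989 and 0.976.

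Bile acid and sterol export genes were rhythmic in 18 of 23 (78.3%; median amplitude 0.31). Cyp7a1, the rate-limiting enzyme of bile acid synthesis, was 74.4, 32.5 and 50 at ZT 1, 62.8, 37.2 and 118 at ZT 5, 121, 69 and 129 at ZT 9, 261, 141 and 105 at ZT 13, 302, 115 and 180 at ZT 17, and 102, 158 and 131 at ZT 21. The ZT 17 libraries ranged from 115 to 302 and the ZT 1 libraries were at most 74.4, for a peak of 15.3 ± 1.01 h (3.52-fold; adjusted p = 0.00882). Cyp8b1, of cholic acid synthesis, peaked at 20.9 h (1.95-fold) and Hsd3b7 at 1.2 h (2.37-fold). Abcb11, whose product pumps bile salts into the canaliculus, was 863, 881 and 1004 at ZT 1, 736, 789 and 695 at ZT 5, 454, 448 and 417 at ZT 9, 326, 391 and 353 at ZT 13, 492, 498 and 533 at ZT 17, and 740, 772 and 744 at ZT 21. Every ZT 1 library was above all others, those at ZT 5 and ZT 21 overlapped, and it peaked at 0.623 h (2.55-fold; adjusted p = 4.5e-14). The sterol exporters Abcg8 (4.82-fold) and Abcg5 (3.61-fold), which work as a heterodimer and lie next to each other on chromosome 17, peaked at 6.63 h and 7.97 h. Nr0b2, the SHP gene that represses Cyp7a1, peaked at 0.418 h (3.54-fold).

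Genes for the removal of foreign chemicals rose towards the night. Of 24 phase I genes 17 were rhythmic (70.8%; median amplitude 0.37), and 13 of the 17 peaked in the windows around ZT 13 and ZT 17. Cyp2b10 was 13.8, 20.5 and 16.1 at ZT 1, 12.8, 15.2 and 12.6 at ZT 5, 6.17, 4.33 and 5.86 at ZT 9, 78.8, 55.8 and 73.5 at ZT 13, 98.6, 70.9 and 80.5 at ZT 17, and 44.8, 44.4 and 36.5 at ZT 21. The ZT 13 and ZT 17 libraries, from 55.8 to 98.6, were above all others, and the fitted peak was 17.5 ± 0.581 h (9.77-fold; adjusted p = 1.4e-05). Cyp2a5 peaked at 13 h (5.96-fold), Por, the P450 reductase gene, at 11.9 h (4.36-fold) and Nr1i3, the CAR receptor gene, at 13.3 h (2.11-fold). Alas1, which starts heme synthesis for P450 enzymes, peaked at 13.2 ± 0.922 h (4.92-fold; adjusted p = 0.00415). Its ZT 13 libraries, at 956, 832 and 832, were above all others. Within other times they differed widely, with 82.6, 108 and 381 at ZT 5 and 625, 54.6 and 413 at ZT 21. Cyp2a5 shares much of its sequence with Cyp2a4, so its reads could be split between them in counting, which was not tested. Cyp2a4 was at 88.4 units in library 4 (ZT 5), where Cyp2a5 was at 235, and at 7 units or below in every other library. Conjugation genes were rhythmic in 13 of 25 (52%, beside 42.9% of all tested genes), with Abcb1a (2.09-fold, 10.2 h), a drug efflux pump gene, and Gstm3 (2.05-fold, 0.813 h) the widest. Besides Alas1, 5 of the other 10 heme genes were rhythmic, namely Uros, Blvrb, Cpox, Fech and Ppox, each below 2-fold. With Alas1 that is 54.5% of the heme list, beside the same 42.9%.

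Protein folding and export in the endoplasmic reticulum (ER) peaked together in the night. Of 28 ER chaperone and unfolded protein response genes 22 were rhythmic (78.6%; median amplitude 0.31), and 15 of the 22 peaked in the window around ZT 17. The circular mean of their peaks was 16.7 h, with a concentration of 0.82. On this scale 1 is a single hour, and 0 is a spread around the day or crowds at opposite hours that cancel. All rhythmic genes had 0.03, with 22.1% of them in the window around ZT 5 and 20.6% in that around ZT 17. Hspa5, encoding BiP, the main ER chaperone (ENSMUSG00000026864, chromosome 2, 34771970 to 34777547), was 764, 904 and 1084 at ZT 1, 544, 477 and 572 at ZT 5, 835, 643 and 698 at ZT 9, 1275, 1418 and 1201 at ZT 13, 1960, 1548 and 1221 at ZT 17, and 891, 802 and 951 at ZT 21. The ZT 13 and ZT 17 libraries, none below 1201, were above all others, and the fit gave 2.47-fold at 16.6 ± 0.654 h (adjusted p = 7.8e-05). Creld2, an ER stress-induced chaperone gene, was 22.7, 29.9 and 48.5 at ZT 1, 15.7, 14.9 and 14.2 at ZT 5, 44.4, 18.8 and 21.8 at ZT 9, 77.5, 89.7 and 70.5 at ZT 13, 131, 102 and 95.8 at ZT 17, and 33.5, 29.4 and 47.8 at ZT 21, again with ZT 13 and ZT 17 above all others (5.56-fold; 16.3 ± 0.561 h; adjusted p = 8.5e-06). Manf (2.85-fold, 16.6 h), Hyou1 (2.78-fold, 16.6 h) and Sdf2l1 (2.78-fold, 18.2 h) followed the same course. Herpud1 (2.24-fold) and Atf6 (1.33-fold) peaked earlier, at 12 h and 10.3 h, and Atf4 (1.57-fold) later, at 21 h. Xbp1 (adjusted p = 0.864), Eif2ak3 (adjusted p = 0.202) and Ern1 (adjusted p = 0.198), sensors or effectors of the response, did not pass.

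The ER stress response element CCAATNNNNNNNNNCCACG, the site through which ATF6 is known to act, is shown for these genes. Searched on both strands, it was in 16 of 9512 promoter windows (0.168%) and in 9 of the 25 ER genes with a window. Among the 866 windows of genes that peaked around ZT 17 it was in 7 (0.808%), around ZT 21 in 3 of 594 (0.505%), and in none of the windows of genes that peaked around ZT 1, 5, 9 or 13. Only 10 rhythmic genes carried it and 7 of them are on the ER list, so these shares largely restate the peak hours of that list. Of the 9 ER genes 7 were rhythmic, a share near the 78.6% of the whole list, and Canx (adjusted p = 0.0526) and Derl3 (adjusted p = 0.627) were not. The rhythmic ones carried these stretches, with the element in capitals and the sequence 5′ to 3′ on the strand of the gene (GRCm38.p6).
Hspa5 (chr2:34772005-34772063, + strand): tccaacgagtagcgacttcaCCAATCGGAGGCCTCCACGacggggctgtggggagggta
Creld2 (chr15:88819500-88819558, + strand): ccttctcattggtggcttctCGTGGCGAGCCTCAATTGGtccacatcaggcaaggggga
Dnajc3 (chr14:118937807-118937865, + strand): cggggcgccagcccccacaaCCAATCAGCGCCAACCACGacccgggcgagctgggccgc
Hsp90b1 (chr10:86705618-86705676, - strand): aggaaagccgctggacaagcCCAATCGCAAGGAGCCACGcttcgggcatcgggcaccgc
Syvn1 (chr19:6046512-6046570, + strand): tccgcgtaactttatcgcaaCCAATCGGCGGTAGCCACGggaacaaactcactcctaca
Pdia6 (chr12:17266471-17266529, + strand): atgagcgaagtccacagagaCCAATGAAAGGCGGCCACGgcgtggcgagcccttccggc
Calr (chr8:84847055-84847113, - strand): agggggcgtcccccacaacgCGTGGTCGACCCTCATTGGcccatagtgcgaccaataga
In Creld2 and Calr the element reads on the opposite strand. The first 5 of these genes peaked between 16.3 h and 17.3 h, and Pdia6 and Calr both at 19.7 h. The match is one of letters and does not show binding.

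The next steps of secretion peaked at the same hours with smaller folds. Of 38 genes for ER translocation, signal peptide cleavage, glycosylation and vesicle coats 25 were rhythmic (65.8%), and all 25 peaked between 12.9 and 18.5 h (concentration 0.92). The widest were Mcfd2 (1.82-fold, 18.2 h), of the cargo receptor for clotting factors, Srprb (1.76-fold, 15.5 h), Ostc (1.68-fold, 16.9 h) and Sec23b (1.66-fold, 15.6 h). The count was 12 without ZT 17 and 15 without ZT 5. The transcripts of the exported proteins themselves moved little. Of 24 abundant plasma protein genes 7 were rhythmic (29.2%, beside 42.9% of all tested genes). None of the 7 was above 1.37-fold, with Fgb, Rbp4 and Serpina1c the widest. Serpina1c did not pass after quantile normalization (adjusted p = 0.738), and Alb (adjusted p = 0.243) and Apoa1 (adjusted p = 0.123) did not pass. That count was 3 without ZT 1, 9 or 17, and to 4 without library 8, 9 or 14 or without ZT 13.

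Complement and coagulation genes (13 of 30, 43.3%) were near the background, with Serpinf2 (1.59-fold, 4.14 h) and F11 (1.57-fold, 6.74 h) the widest. Acute phase genes (10 of 24, 41.7%) were near it too, with 6 without ZT 1 and 5 without ZT 13. In the IgG libraries alone 15 of the 24 were rhythmic, beside 42.5% of all tested genes in that setting. Saa1, the main acute phase serum amyloid A gene, passed at 6.25-fold (adjusted p = 0.0275), but its libraries at ZT 9 were 59.4, 901 and 34.6, those at ZT 13 were 43.8, 623 and 68, and those at ZT 17 were 33.7, 54.3 and 228. The same libraries, numbers 8, 11 and 15, held the highest values of Saa2 (686, 371 and 88.6) and of Lcn2 (35.6, 8.04 and 4.04), which neutrophils also express. The other 5 neutrophil markers with values summed to 6.5 units in library 8, 4.69 in library 11 and 3.74 in library 15, and to between 2.89 and 4.35 units in the remaining libraries, and their part in these values was not tested. Il6ra, the interleukin 6 receptor gene, peaked at 11.7 h (3.1-fold) and Socs3 at 8.61 h (3.13-fold).

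Ribosome genes moved in step but barely. Of 47 cytosolic ribosomal protein genes 25 were rhythmic (53.2%, beside 42.9% of all tested genes). All 25 peaked between 14.7 and 17.7 h (concentration 0.98), with folds between 1.13 and 1.24. Rpl11 was 168, 186 and 199 at ZT 1, 180, 178 and 180 at ZT 5, 164, 174 and 176 at ZT 9, 225, 207 and 206 at ZT 13, 204, 228 and 215 at ZT 17, and 217, 190 and 187 at ZT 21, so that ZT 13 and ZT 17 were above ZT 5 and ZT 9 without overlap and 1 ZT 21 library was among them (1.24-fold; adjusted p = 0.00353). Ribosomal protein genes have many processed pseudogenes, and reads could be split with them. The count was 9 after quantile normalization, where 42.1% of all tested genes were rhythmic. It was 15 without library 14, 9 without ZT 13 and 6 without ZT 17. Of 39 ribosome biogenesis genes 22 were rhythmic (56.4%, beside the same 42.9%), at a mean of 16 h. The widest were Rrp12 (2.28-fold, 15.7 h), Nolc1 (2.11-fold, 17 h), Bysl (1.83-fold, 15.8 h) and Nop56 (1.72-fold, 15.5 h). Without ZT 5 this count was 13 and without ZT 13 it was 14.

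Genes of oxidative phosphorylation did likewise. Of 46 subunit genes 31 were rhythmic (67.4%, beside 42.9% of all tested genes). All 31 peaked between 14.6 and 19.5 h (concentration 0.96), with folds between 1.13 and 1.43. Ndufa5, of complex I, was 32.2, 32.2 and 36.7 at ZT 1, 31.2, 30.5 and 31.3 at ZT 5, 31.5, 29.1 and 30.8 at ZT 9, 49.5, 35.6 and 35.2 at ZT 13, 43.2, 47.6 and 38.9 at ZT 17, and 46.1, 37.5 and 35.7 at ZT 21. No ZT 5 or ZT 9 library reached any of those at ZT 13, 17 or 21 (1.43-fold; 17.6 ± 0.916 h; adjusted p = 0.0039). Others were Ndufs7 (1.41-fold), Uqcrb (1.36-fold) of complex III, and Ndufa1 (1.33-fold). The count was 19 after quantile normalization, where 42.1% of all tested genes were rhythmic. It was 20 without library 14, 17 without ZT 5 and 18 without ZT 17. Mitochondrial chaperone and protease genes were rhythmic in 12 of 22 (54.5%, beside 42.9% of all tested genes), with Clpx, encoding an unfoldase, far ahead at 6.61-fold (21.9 h) and the others at or below 1.55-fold. Without ZT 5 that count was 7. Proteasome genes were under the background (12 of 34, 35.3%) and peaked elsewhere, at a mean of 23.1 h, led by Psmd11 (1.59-fold, 23.8 h) and Psma5 (1.41-fold, 2.97 h).

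**Figure D3:**
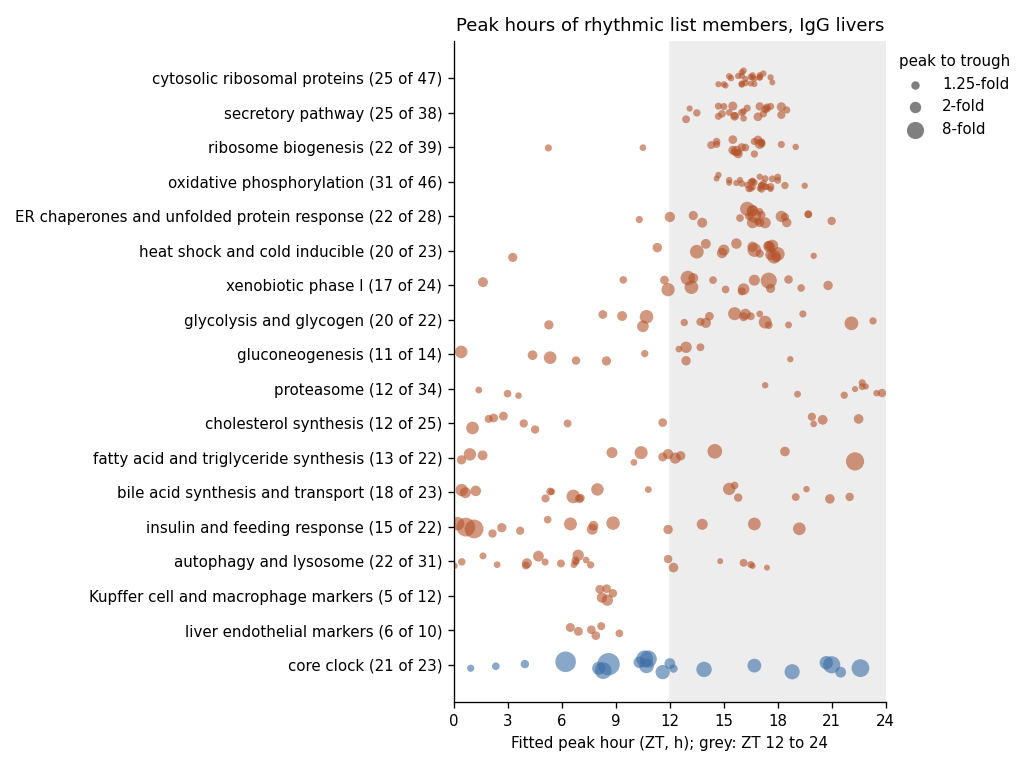
Fitted peak hour in ZT (x axis) of each rhythmic member of 18 gene lists (rows, with rhythmic of tested members) in IgG livers; the area of a point grows with the log2 of the peak-to-trough fold, points are spread vertically for legibility and ZT 12 to 24 is grey. Ribosomal, secretory, oxidative phosphorylation, ER and heat shock genes mostly lie together between about ZT 13 and ZT 20, Kupffer cell and endothelial markers between 6.46 and 9.19 h, and the clock genes around the whole day.

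Heat shock genes were mostly highest at ZT 13 and ZT 17. Of 23 listed genes 20 were rhythmic (87%; median amplitude 0.59), of which 14 peaked in the window around ZT 17 and 4 around ZT 13. Hsp90aa1, the inducible cytosolic HSP90 gene, was 211, 285 and 302 at ZT 1, 121, 128 and 119 at ZT 5, 170, 103 and 101 at ZT 9, 423, 531 and 365 at ZT 13, 585, 542 and 565 at ZT 17, and 315, 357 and 430 at ZT 21. All ZT 17 libraries were above the others (4.88-fold; 17.8 ± 0.443 h; adjusted p = 1.4e-07). Hspb1 (5.08-fold, 18 h), the small heat shock protein gene, and Hsph1 (4.97-fold, 16.7 h), an exchange factor of HSP70, were as wide. The cold-inducible Cirbp ran opposite, with a peak at 3.26 h (1.8-fold), and Rbm3, also cold-inducible, peaked at 11.3 h (1.9-fold). Hspa1a (adjusted p = 0.0506), Serpinh1 (adjusted p = 0.0647) and Hsf1 (adjusted p = 0.22), the gene of the master regulator, did not pass. Hspa1a and Hspa1b are near-identical copies, and their reads may be split. Hspa1b passed (4.98-fold, 13.5 h), but not with a robust trend (adjusted p = 0.0527).

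The heat shock element, as GAANNTTCNNGAA or TTCNNGAANNTTC on either strand, was in 0.357% of the 9512 promoter windows and in 3 of the 18 heat shock genes with a window. All 3 were rhythmic, as were 20 of the 23 listed genes, and peaked between 16.6 h and 17 h. Among all genes that peaked around ZT 1 it was in 6 of 582 windows (1.03%), and around ZT 17 in 9 of 866 (1.04%). The share was 0.323% around ZT 5, 0.157% around ZT 9, 0.542% around ZT 13 and 0.337% around ZT 21. Stretches of 2 of them are shown, with the element in capitals (GRCm38.p6, strand of the gene, 5′ to 3′). The match in Chordc1 runs across the start site, and in the third gene, Hsph1, the match lies after it.
Chordc1 (chr9:18292243-18292295, + strand): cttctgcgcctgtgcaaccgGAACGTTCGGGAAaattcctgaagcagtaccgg
Hspe1 (chr1:55088039-55088091, + strand): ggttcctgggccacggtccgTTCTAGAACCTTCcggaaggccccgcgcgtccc

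Beyond the 24 h wave, 187 of 12504 genes (1.50%) had a component of 12 h, tested in the same fit with a 12 h cosine and sine added. Of these, 162 also had a 24 h rhythm, and in 36 the 12 h amplitude was the larger. Sampling every 4 h gives only 3 times per 12 h cycle, so the shape of such a wave is not resolved. The 12 h peaks crowded at 1 to 3 h and so again 12 h later (79 genes), and at 6 to 9 h (77 genes). Heat shock genes and clock genes were prominent, with 9 of 23 and 11 of 23 members called. In anti-Ly6G livers 71 of the 12504 genes had a 12 h component, 32 of them among the 187. Of the 187, 138 had their fitted 12 h peak within 1.5 h of that in the other treatment. How many of all tested genes came as close was not counted, and both treatments share 1 residual spread per gene in the fit. The number was between 100 and 178 when 1 IgG library was left out, lowest without library 2.

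The smallest p-value belonged to P4ha1, a subunit of the prolyl hydroxylase of collagen, which was 16, 16.6 and 14.6 at ZT 1, 7.98, 6.16 and 6.18 at ZT 5, 8.9, 6.85 and 7.17 at ZT 9, 29, 33.6 and 23 at ZT 13, 21, 21.4 and 16.1 at ZT 17, and 8.52, 10.3 and 9.33 at ZT 21. Its ZT 13 libraries were above all others, and those at ZT 1 were above all at ZT 5, ZT 9 and ZT 21, so there was a lesser high point in the early morning (12 h peaks at 1.64 and 13.6 h; adjusted p = 1.4e-05). Banp, encoding a nuclear matrix-binding protein, was 10.4, 11 and 10.1 at ZT 1, 3.53, 5.29 and 4.91 at ZT 5, 5.66, 5.26 and 5.2 at ZT 9, 15.5, 15.2 and 11.2 at ZT 13, 9.78, 9.99 and 8.86 at ZT 17, and 4.24, 5.51 and 5.58 at ZT 21. Its ZT 13 libraries were above all others and those at ZT 1 above all at the remaining times (adjusted p = 1.3e-04), and its 24 h rhythm did not pass (adjusted p = 0.0963; 0.0455 with voom weights). Hspa8, the constitutive HSP70 gene, was 776, 766 and 1000 at ZT 1, 655, 556 and 621 at ZT 5, 859, 426 and 707 at ZT 9, 2145, 1972 and 1663 at ZT 13, 1589, 1475 and 1342 at ZT 17, and 720, 552 and 603 at ZT 21. Its ZT 13 libraries all exceeded the rest, followed by ZT 17, while those at ZT 1 overlapped with ZT 9 (adjusted p = 3.7e-04).

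Bag3, a co-chaperone gene, was 30.2, 36.6 and 27.7 at ZT 1, 20.2, 20 and 24.6 at ZT 5, 17.5, 15.9 and 24.3 at ZT 9, 75.4, 77 and 52.2 at ZT 13, 47.2, 42.9 and 43 at ZT 17, and 29.7, 21.3 and 23.7 at ZT 21, with the order of Hspa8 and with ZT 1 above all ZT 5 and ZT 9 libraries (adjusted p = 1.8e-04). Crebrf, encoding a regulator of the unfolded protein response, ran the other way, at 33.1 ± 5.66, 36.3 ± 5.81, 40.6 ± 6.93, 12.2 ± 2.52, 17.7 ± 3.76 and 42.3 ± 6.24 units at ZT 1, 5, 9, 13, 17 and 21 (SD, n = 3 each), with lows at ZT 13 and ZT 17 and no separate low at ZT 1, where the libraries overlapped with those at ZT 5 and ZT 9. Tubb2a, a tubulin gene, was 175, 215 and 212 at ZT 1, 64.9, 55.5 and 39.4 at ZT 5, 14.9, 15.4 and 13.2 at ZT 9, 70.4, 57.9 and 59.4 at ZT 13, 142, 119 and 152 at ZT 17, and 155, 138 and 173 at ZT 21, where the ZT 9 libraries fell under all others. For Tubb2a, Dbp, Nfil3 and the galectin-like Lgalsl the 12 h term went with means that rose and fell once a day, with no separate high point.

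**Figure D4:**
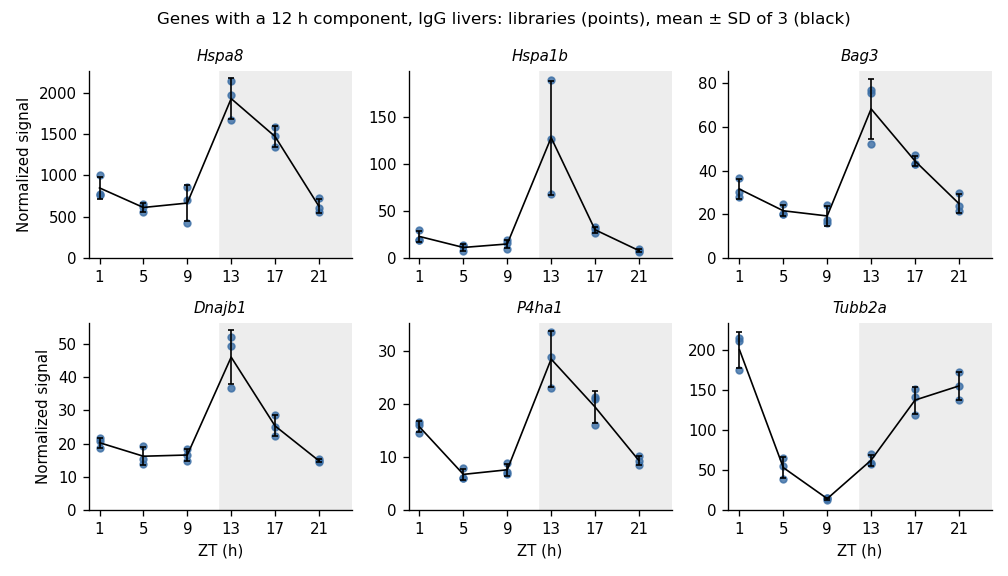
Normalized signal (y axis, linear from 0) of 6 genes with a 12 h component in the 18 IgG liver libraries by ZT in hours (x axis); points are libraries, black lines and bars the mean ± SD of 3, and grey is ZT 12 to 24. Hspa8, Hspa1b, Bag3, Dnajb1 and P4ha1 peak at ZT 13 with a lower value at ZT 1 that exceeds ZT 5, and Tubb2a has its low at ZT 9.

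Autophagy and lysosome genes peaked by day in part. Of 31 genes 22 were rhythmic (71%), but the median amplitude was 0.16, as low as that of all genes tested, and 9 of the 22 peaked in the window around ZT 5. Ulk1, the kinase that starts autophagy, was 53.3, 54.1 and 59.9 at ZT 1, 108, 109 and 90.2 at ZT 5, 93.1, 94.3 and 104 at ZT 9, 70.3, 56.9 and 62 at ZT 13, 27.8, 38.7 and 39.7 at ZT 17, and 38.5, 49.2 and 51.6 at ZT 21. The ZT 5 and ZT 9 libraries lay above all others (2.8-fold; 6.9 ± 0.399 h; adjusted p = 1.7e-08). Gabarapl1 (2.47-fold, 4.69 h), which coats the autophagosome, and Fbxo32 (2.11-fold, 4.05 h), a ubiquitin ligase gene, were the next by fold. Becn1, Gabarap and Gabarapl2 peaked at night, each below 1.2-fold.

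Amino acid and cofactor metabolism held single genes of wide swing. Of 32 urea cycle and amino acid genes 15 were rhythmic (46.9%, near the 42.9% of all tested genes), led by Agxt (2.44-fold, 3.56 h), Asl (2.41-fold, 15.6 h) and Cbs (2.33-fold, 1.13 h), while Cps1 (adjusted p = 0.738) and Otc (adjusted p = 0.333) did not pass. Of 27 one carbon, methionine and glutathione genes 13 were rhythmic (48.1%, also near that share). Of 19 NAD genes 12 were rhythmic (63.2%), with Nampt, the salvage enzyme, at 2.85-fold and 13.1 h, Nnmt at 2.89-fold and 14.1 h, and Acmsd at 2.6-fold and 19.2 h.

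Hormone-responsive and regulatory genes varied in hour. Of 17 tested glucocorticoid response genes 10 were rhythmic (58.8%, beside 42.9% of all tested genes). They included Fkbp5 (5.68-fold, 14.3 h), Tsc22d3 (3.11-fold, 17.7 h) and the metallothionein gene Mt1 (7.51-fold, 10.3 h, adjusted p = 0.0571 with voom weights), while Dusp1 (adjusted p = 0.861) and Sgk1 (adjusted p = 0.529) did not pass. Of 31 nuclear receptor and coregulator genes 21 were rhythmic (67.7%), the widest being Ppard (5.55-fold, 21.6 h), which peaked opposite to Ppara. Among growth hormone and sex-biased genes 8 of 22 were rhythmic (36.4%), and apart from Elovl3 only Hsd3b5 (2.27-fold, 2.06 h) exceeded 2-fold. Of 20 iron and copper genes 10 were rhythmic (50%, near the 42.9% of all tested genes), with Slc30a10 (3.01-fold, 20.7 h) and the transferrin receptor gene Tfrc (2.32-fold, 16.7 h), and Hamp, the hepcidin gene, did not pass (adjusted p = 0.233). In DNA replication and mitosis 9 of 24 tested genes were rhythmic (37.5%), among them the replication genes Rrm2 (2.71-fold, 12.8 h) and Cdt1 (2.3-fold, 5.92 h) and the cell cycle brakes Cdkn1a, Wee1 and Gadd45a (2.91-fold, 10.1 h). Cdkn1a, the p21 inhibitor, was 7.37, 4.05 and 7.79 at ZT 1, 1.99, 0.909 and 1.39 at ZT 5, 0.383, 0.885 and 0.234 at ZT 9, 13.9, 2.7 and 8.9 at ZT 13, 8.95, 14.1 and 11.6 at ZT 17, and 21.1, 14.6 and 12.6 at ZT 21, at 10.6-fold and 19.3 ± 0.458 h (adjusted p = 2.5e-07), and Wee1, the mitotic kinase brake, peaked at 11.2 h (4.59-fold).

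The widest rhythms outside the clock, with a mean of at least 10 units, named each window. Around ZT 1 these were Igfbp1, Egr1, Spon2 (7.98-fold), Rnf125 (6.44-fold) and Depp1 (6.4-fold). Around ZT 5 they were Abcg8, Clec2h (4.75-fold), Tcp11l2 (4.51-fold), Slc7a2 (4.49-fold), a transporter of cationic amino acids, and the antisense RNA Hectd2os (4.1-fold), whose strand the counting is not stated to have used. Around ZT 9, Rgs16, a brake on G protein signalling, was 2.6, 4.23 and 8.65 at ZT 1, 21.4, 79.7 and 54.9 at ZT 5, 66.7, 38.1 and 129 at ZT 9, 19.5, 9.41 and 7.66 at ZT 13, 2.85, 1.77 and 3.09 at ZT 17, and 0.767, 5.43 and 0.894 at ZT 21. Libraries of Rgs16 differed by more than 3-fold within ZT 5 and within ZT 9, and no ZT 1, 13, 17 or 21 library reached the lowest of these, 21.4 (30.9-fold; 7.82 ± 0.542 h; adjusted p = 4.9e-06). Upp2 (5.38-fold), Pfkfb3, Arrdc3 (4.8-fold) and Gpcpd1 (4.72-fold) shared its window.

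Around ZT 13, the deubiquitinase gene Usp2, a known clock output, was 2.46, 2.32 and 1.58 at ZT 1, 9.2, 13.9 and 24.9 at ZT 5, 66.8, 62.8 and 60.7 at ZT 9, 50, 43 and 51.3 at ZT 13, 19.7, 22.2 and 25.5 at ZT 17, and 13, 9.4 and 11.2 at ZT 21. ZT 9 and ZT 13 were above all other times without overlap (13.9-fold; 11.9 ± 0.445 h; adjusted p = 1.6e-07). With it came Tsku (8.94-fold), a secreted proteoglycan gene, Thrsp, Saa1 and Cyp2a5. Around ZT 17 the widest were Cyp2b10, Eif4ebp3 (6.2-fold), a translation repressor gene, Nat8f5 (6.1-fold), Creld2 and Col27a1 (5.31-fold). Around ZT 21 they included Elovl3, Chka (9.47-fold), the first kinase of choline use, Tubb2a and Pdk4.

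Markers of cells other than hepatocytes were followed as well, since in bulk tissue fewer cells of a type and less RNA per cell cannot be told apart. Resident macrophage markers were rhythmic in 5 of 12 genes (41.7%, near the 42.9% of all tested genes), and all 5 peaked between 8.1 and 8.83 h: Marco (2.82-fold), Cd5l (2.26-fold), Timd4 (1.69-fold), Csf1r (1.66-fold) and C1qb (1.62-fold). Csf1r did not pass after quantile normalization (adjusted p = 0.0523), with voom weights (adjusted p = 0.056) or with a robust trend (adjusted p = 0.0566). Sinusoidal endothelial markers were rhythmic in 6 of 10 genes (60%, beside the same 42.9%), with peaks between 6.46 and 9.19 h. Among them were Oit3 (1.75-fold), Kdr (1.74-fold), Stab2 (1.67-fold) and Dnase1l3 (1.64-fold), the last of which did not pass with a robust trend (adjusted p = 0.0585). Clec4f and Vsig4 of the macrophages (adjusted p = 0.0665 and 0.219) and Lyve1 and Clec4g of the endothelium (adjusted p = 0.335 and 0.561) did not pass.

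Summed over its 12 genes, the macrophage list was 270 ± 85.2, 349 ± 52.8, 353 ± 33, 330 ± 56.3, 266 ± 103 and 220 ± 50.4 units at ZT 1, 5, 9, 13, 17 and 21 (SD, n = 3 each). The endothelial sum was 299 ± 60.1, 394 ± 40, 364 ± 39.4, 352 ± 63.2, 285 ± 81.9 and 266 ± 57.6. The spread within a time was wide and shared by both lists, since libraries 3, 14 and 16 were the lowest of their times in both (192, 161 and 162 units for macrophages, and 247, 193 and 199 for endothelium). The number of rhythmic endothelial markers was 2 without library 14 or 16, 3 without library 4, 0 without ZT 5 and 2 without ZT 17 or ZT 21, and that of macrophage markers was 3 without library 16, ZT 5 or ZT 21 and 8 without library 15. In anti-Ly6G livers none of these genes was rhythmic (0 of 22), and the macrophage sum there was highest at ZT 21 (487 ± 68) and lowest at ZT 17 (310 ± 50.3). The test of a difference between treatments did not pass for any of them. The part of cell composition in the other gene groups was not tested.

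**Figure D5:**
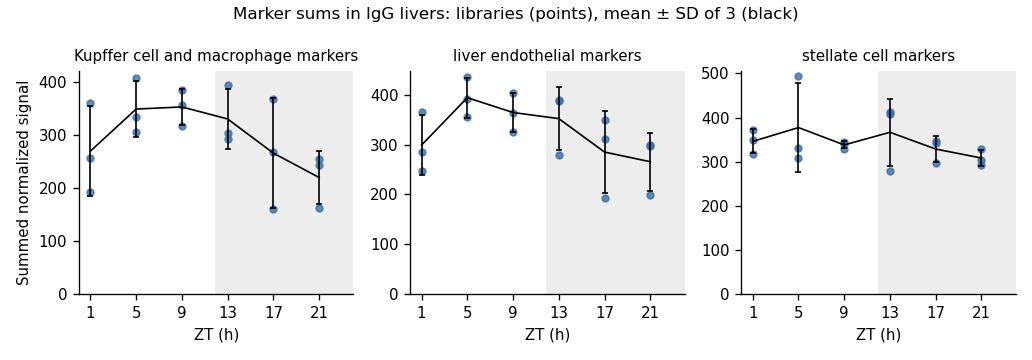
Summed normalized signal (y axis, from 0) of macrophage, sinusoidal endothelial and stellate cell markers in each of the 18 IgG liver libraries by ZT in hours (x axis); points are libraries and black lines and bars the mean ± SD of 3. The macrophage and endothelial sums are highest at ZT 5 and ZT 9 and lowest at ZT 21. In both of these lists the ZT 17 libraries lie further apart than the highest and lowest means, as do the ZT 1 libraries for macrophages.

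Among the remaining cell types, 1 of 10 stellate cell markers was rhythmic (Col3a1, 1.57-fold, 7.27 h), and the count was between 0 and 2 over the alternatives. Of 6 bile duct cell markers 4 were rhythmic (66.7%, beside 42.9% of all tested genes), with Sox9 (2.2-fold, 20.9 h) the widest. That count was 2 without ZT 5 or ZT 9 or with a stricter filter on low values. Of 10 hepatocyte markers 6 were rhythmic (60%, beside the same 42.9%), of which Pck1 alone exceeded 2-fold. None of the tested neutrophil (3), lymphocyte (3), erythroid (5) or pancreas and gut markers (2) passed. Ly6g itself, the target of the depleting antibody, was between 0.217 and 1.14 units in the IgG livers and was too low to be tested.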

How the data were processed

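The authors' deposited liver and gut tables hold a normalized signal, linear values per gene and library. Per the labels' protocols, total RNA (200 ng) went into NEBNext Ultra libraries, read as 50-nucleotide single reads on a HiSeq2500, with adapters removed by Cutadapt 1.7.1 and reads quantified on the GRCm38 transcriptome (Ensembl build 84) by RSEM 1.2.20 and Kallisto 0.43.1. Per the submitters' processing notes, RSEM was 1.7.1 and limma 3.46. The normalization and gene filter are not given in the sources used here. Each column's lowest value behaved as 0.5 counts, which gave the depth; only 44.5% of recovered counts were whole within 0.001, so no count model was used.

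From these values, log2(value + 1) of the 12504 of 14451 liver genes with a mean of at least 1 over 36 liver libraries was fitted in limma 3.58.1 (R 4.3.3). The fit had a mean, 24 h cosine and 24 h sine per treatment and 1 shared residual spread, with trend. Rhythm was the F test of the IgG cosine and sine, Benjamini-Hochberg adjusted below 0.05, and the 12 h component used added 12 h terms. Peak hour and fold (peak to trough, 2 to the power of 2 amplitudes) came from the coefficients, with SE by the delta method. Gut IgG libraries were fitted alike in their own table. The fit was tested on simulated data. Symbols and GRCm38 coordinates are from GENCODE M21 (44 identifiers unmatched) and promoters from RefSeq GRCm38.p6.

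The 41 gene lists were chosen with earlier results of these data known. Named genes are the core clock, up to 4 rhythmic members of each list by amplitude, the 5 widest in each 4 h window of peak hour with a mean of at least 10, and the 8 smallest p of the 12 h component. Other list members named, including those that did not pass, were chosen after their values were seen. Some list members count in the totals but are not reported by name here. Alternatives covered the pseudocount, filter, normalization, weights, a ZT factor and the leaving out of libraries or times. Python 3.11.15, pandas 2.3.3, NumPy 2.4.6 and matplotlib 3.10.9 were used.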

Additional observations from a re-analysis of the deposited data

Results flagged for a closer look

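Uchl5, a proteasome-associated deubiquitinase gene on chromosome 1, was the only gene of 12504 whose 24 h rhythm passed the test of a difference between treatments (limma F test of the treatment by cosine and sine terms, adjusted p = 0.045). In anti-Ly6G livers it peaked at 11.3 h with a fold of 1.48 (adjusted p = 3.3e-06), and in IgG livers the fold was 1.08 (adjusted p = 0.478). Its IgG means were 16.1, 14.4, 15.1, 14.6, 15.7 and 15.5 units at ZT 1, 5, 9, 13, 17 and 21. The adjusted p was 0.0638 with no filter on low values, 0.0622 with a robust trend, 0.0526 with array weights and between 0.0219 and 0.119 with 1 IgG library left out.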

How the results depend on the processing

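The number of genes with a 24 h rhythm stayed within 1.5 times of 5368 in all alternatives, from 4009 without ZT 5 to 5702 with array weights, and was 5314 in the IgG libraries alone. The number with a 12 h component was 187, 284 with array weights and between 100 and 178 with 1 IgG library left out; it was 119 without library 1, 117 without library 3, 114 without library 8, 123 without library 11 or 18 and 119 without library 17. The number whose 24 h rhythm differs between anti-Ly6G and IgG livers was 1; it was 0 with no filter on low values or a robust trend, 2 with a mean of at least 4 or voom weights, 0 to 2 with 1 IgG library left out, 0 without ZT 1, 17 or 21 and 3 without ZT 9. The cause of these shifts was not tested. No named gene reversed direction in an alternative in which it still passed. The mean peak hours of lists were not checked in that way. After quantile normalization that of the ER genes was 16.9 h against 16.7 h. It was 8.42 h against 14.5 h for hepatocyte markers and 0.611 h against 18.9 h for abundant plasma proteins. The alternatives for the difference, and the list counts without library 6, were chosen after seeing the data. No paired analysis was possible because the labels number the liver libraries in one run and give the times no shared replicate number. With 3 libraries a time, small folds rest on the shared residual spread, and Npas2 and Dbp near their lows rest on a few reads.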
